A study of Arabidopsis thaliana with 12 samples.

Results

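AT1G31790, AT1G79080 and AT5G15280 are nuclear genes of Arabidopsis thaliana that encode pentatricopeptide repeat proteins. They are 3 of the 689 genes that the platform's gene table ties to a probe of their own, and each had 1 such probe and stood on no probe shared with another gene. They were picked by name after earlier results had shown them higher in the mutant, so their difference between genotypes chose them. It is given here as a description, with no test. Total RNA was hybridised to 1-channel arrays from 6 samples labelled prors2, a prolyl-tRNA synthetase mutant, and from 6 samples labelled WT. Both groups are of ecotype Columbia 0. The labels do not give the allele, tissue, age or growth conditions, nor do they say that each sample was grown or extracted apart. The p-values printed for other genes thus cover the spread among these 12 samples and no more, and that spread may be technical.

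Pentatricopeptide repeat proteins are built of tandem repeats that together read a stretch of single-stranded RNA. The family is greatly expanded in land plants, is encoded in the nucleus, and acts mostly in plastids and mitochondria, where its members take part in editing, splicing, trimming, protecting and translating organellar transcripts. Prolyl-tRNA synthetase loads proline onto its tRNA and is needed wherever an organelle makes its own proteins. No role for any of the 3 single genes is stated in the sources used here.

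The deposited value of a feature is a relative intensity on a linear scale from 0 to 100. The table holds 3439 features. The arrays themselves differed between the groups: the median feature lay between 0.279 and 0.305 on the prors2 arrays and between 0.136 and 0.169 on the WT arrays, and the features at exactly 0 numbered from 262 to 316 per prors2 array and from 368 to 396 per WT array. The part of this in the values below was not tested. Differences are therefore given on the deposited scale, as the rank of the gene within its own array, and after quantile normalization of the log2 values. That normalization leaves zeros out and gives the values above 0 of all arrays the same distribution. As the WT arrays held more zeros, it can order samples otherwise than the rank among all features does. Over the 3024 features with at least 4 of 6 values above 0 in each group, the median log2 difference (prors2 minus WT) was 0.76 on the deposited values, 0.69 after dividing each array by its sum, 0.07 after quantile normalization and -0.06 after median centring. All 3 genes passed that filter. The prolyl-tRNA synthetase genes AT5G52520 and AT3G62120 had 0 probes, so no transcript measured here checks the genotype labels. Of 9 leaf markers only LHB1B2, an antenna protein gene, had a probe of its own, at 10.04 to 11.08 in prors2 and 29.4 to 35.3 in WT, and none of the 13 markers of seed, root hair, pollen or senescence had one.

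AT1G31790 was higher in every prors2 sample and varied little within each group. In prors2 it ran from 0.733 to 0.931 with a median of 0.852, against 0.204 to 0.268 with a median of 0.245 in WT. The mean was 0.847 ± 0.067 in prors2 and 0.243 ± 0.024 in WT (SD, n = 6 each), and no sample was at 0. The groups were wide apart, and the lowest prors2 sample, replicate 5, was far above the highest WT sample, replicate 3. Between samples of the same replicate number the prors2 value was 3.28, 3.65, 3.48, 3.34, 3.07 and 4.20 times the WT value in replicates 1 to 6. All 6 of these ratios lay above 3 on the deposited values, on which the median feature was itself higher on the prors2 arrays. After median centring the log2 differences of the same pairs ran from 0.66 in replicate 5 to 1.11 in replicate 2.

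Within its own array AT1G31790 stood between the 80.1 and 84.9 percentile of all features in prors2 and between the 60.9 and 65.4 percentile in WT. The gain in rank was smallest in replicate 5, at 14.7 percentile points, and 22.3 in replicates 2 and 6. After quantile normalization the difference was 1.23 on the log2 scale (SE 0.089), a 2.34-fold higher level in prors2. The SEs of fitted differences, here, below and in the figures, are limma's moderated ones. For these each feature's variance is drawn towards that of all features in the fit. Median centring gave 0.98 and the deposited values 1.80, so the size depends on the scaling while the sign does not. Its spread within a group, an SD of 0.11 on the log2 scale, was small: 1.65% of the tested features had a smaller one, and the median feature had 0.34.

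**Figure D1:**
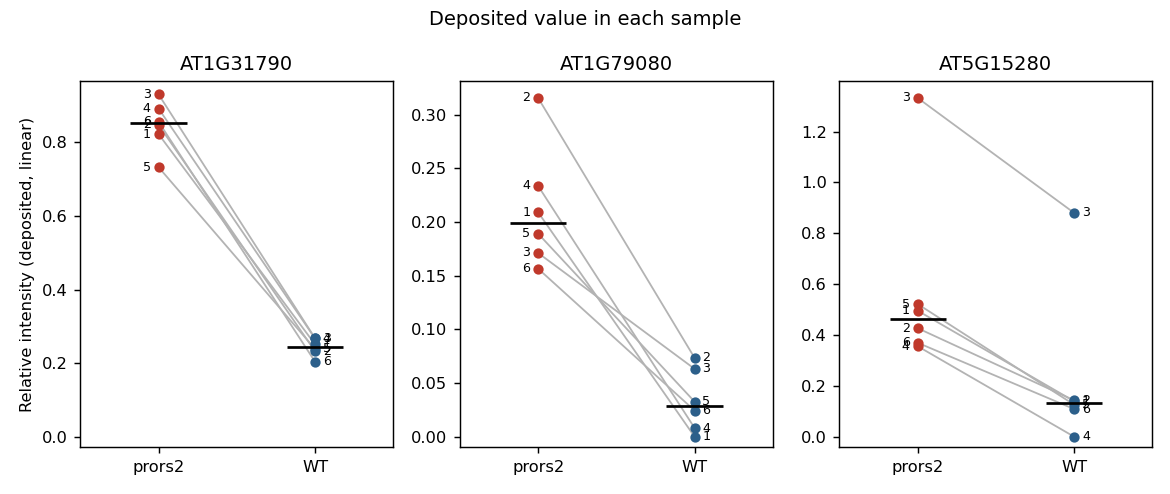
Deposited relative intensity (linear axis, a separate scale for each gene) of the 3 genes in the 6 prors2 and the 6 WT samples. Points are samples with their replicate number, grey lines join samples of the same number, and black bars are group medians. AT1G31790 forms compact groups that do not overlap, AT1G79080 has WT replicate 1 at 0, and AT5G15280 has replicate 3 far above the others in both groups and WT replicate 4 at 0.

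AT1G79080 was also higher in every prors2 sample, but in WT it lay close to the bottom of the scale. The prors2 values were 0.209, 0.316, 0.171, 0.234, 0.189 and 0.157 in replicates 1 to 6. The WT values in the same order were 0, 0.0734, 0.0632, 0.00812, 0.0327 and 0.0244. Every prors2 sample lay above every WT sample, the nearest being prors2 replicate 6 and WT replicate 2. WT replicate 1 is listed at 0, and nothing in the file says whether that is a failed spot or a value too low to read, so no mean is given for WT.

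Where both values were above 0, the prors2 value was 4.30, 2.71, 28.8, 5.80 and 6.42 times the WT value in replicates 2 to 6. The large ratio in replicate 4 comes with the WT value of 0.00812, the lowest above 0, while the prors2 value of that replicate was ordinary. The ratios therefore spread much more than the differences in intensity, which ran from 0.108 in replicate 3 to 0.242 in replicate 2. Over the 5 WT samples above 0 the log2 difference after quantile normalization was 1.72 (SE 0.48), a 3.30-fold higher level in prors2. Its within-group SD of 0.86 was larger than that of 85.7% of the tested features. The size rests on how the zero is treated: it was 1.25 with a small offset added to every value and 3.65 (SE 2.12) with zeros set to the lowest positive value of the table.

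By rank, AT1G79080 stood between the 28.3 and 53.5 percentile of its array in prors2 and between the 5.64 and 28.6 percentile in WT. On this scale the groups touched, since prors2 replicate 6 ranked just under WT replicate 2. After quantile normalization, which leaves zeros out, the order of these samples was the reverse, at -3.20 and -3.37 on the log2 scale. Its rank was still higher in prors2 in each of the 6 replicate numbers, by 7.12 points in replicate 3 and by up to 34.2 points in replicate 1, where the WT value is the zero.

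**Figure D2:**
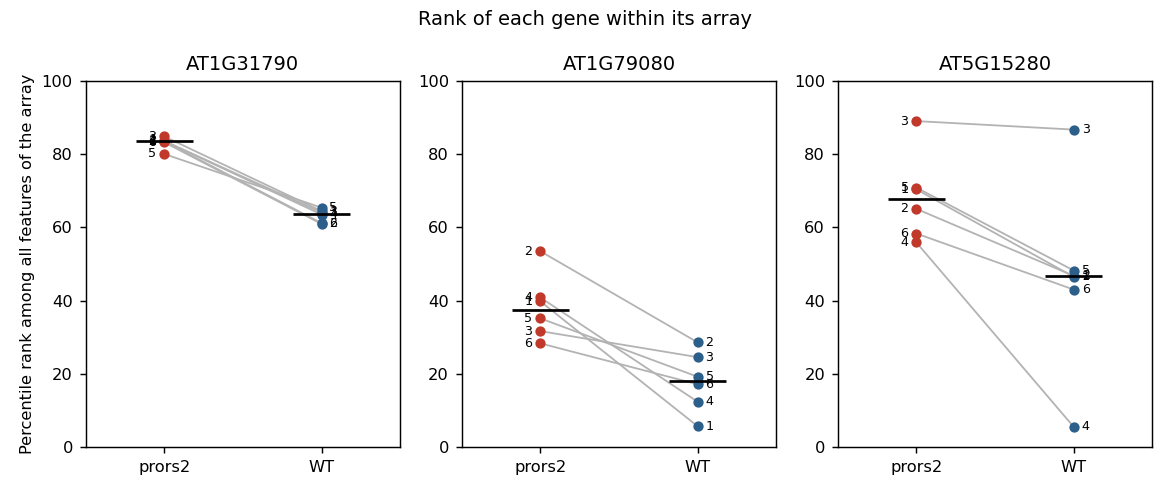
Percentile rank of the 3 genes among all 3439 features of the same array (linear axis, 0 to 100), a measure that no scaling of a whole array changes. Points are samples with their replicate number, lines join the same number, and black bars are group medians. Each line is higher on the prors2 side, but for AT5G15280 the line of replicate 3 gains only 2.33 points.

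AT5G15280 was higher in prors2 within each replicate number, and differed widely between the numbers. The prors2 values were 0.495, 0.427, 1.33, 0.356, 0.522 and 0.369 in replicates 1 to 6. The WT values in the same order were 0.140, 0.143, 0.880, 0, 0.126 and 0.109. Replicate 3 was far above the other 5 in both groups, replicate 4 was the lowest in both, and WT replicate 4 is listed at 0. Because of WT replicate 3 the groups overlapped: that WT sample was above 5 of the 6 prors2 samples.

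The difference between samples of the same number in relative intensity of AT5G15280 was 0.356, 0.284, 0.452, 0.356, 0.396 and 0.261 in replicates 1 to 6, a narrow range beside the spread of the values themselves. As ratios, replicates 1, 2, 5 and 6 gave 3.55, 2.99, 4.15 and 3.40, but replicate 3 gave 1.51, and replicate 4 has no ratio. After median centring replicate 3 turned slightly the other way, at -0.15 on the log2 scale, while replicates 1, 2, 5 and 6 lay between 0.80 and 1.10.

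Over the 11 samples above 0, the log2 difference of AT5G15280 after quantile normalization was 0.72 (SE 0.50). The deposited values gave 1.46, equal sums 1.37, median centring 0.60 and an offset added to every value 1.13, so its size too depends on the scaling and on the zero. With the replicate number as a term of the fit it was 0.85 (SE 0.15). Replicate 4 adds nothing to that fit, since its WT value is the zero. With zeros set to the lowest positive value of the table the difference was 3.23 (SE 2.50). Leaving out WT replicate 3 gave 1.17, leaving out prors2 replicate 3 gave 0.42, and leaving out both gave 0.89 (SE 0.18). The within-group SD was 0.91, larger than that of 87.0% of the tested features. Once the replicate number was taken into account, again with nothing added by replicate 4, the residual SD was 0.24, close to the 0.26 of the median feature. AT1G31790 and AT1G79080 showed no such drop: their residual SDs with the replicate number in the fit were 0.12 and 0.88.

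The replicate 3 arrays were, with those of replicate 4, the brighter ones of each group. Their summed intensities were 3274 in prors2 and 3136 in WT, against 3278 and 3167 on the replicate 4 arrays, where AT5G15280 was lowest. The part of array brightness in the replicate 3 values was not tested. Replicate 3 was the highest of the 6 in both groups in 6.51% of the tested features. A gap past the critical value of Dixon's test for a single high value was seen in replicate 3 of both groups for 7 of 3024 features, AT5G15280 among them, and for 1 to 5 features in each of the other replicate numbers. Of the 7 features, 3 have a probe for a single gene: AT5G15280, AT4G22190 and RALFL32 (AT4G14010), which encodes a small peptide of the RALF family. AT4G22190 stood at 0.801 in prors2 replicate 3 and 0.559 in WT replicate 3, against group medians of 0.131 and 0.136. RALFL32 stood at 1.06 and 0.943 in the same samples, against medians of 0.0495 and 0.0226. These names were chosen after the values were seen.

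Each of the 3 genes was higher in prors2 in 6 of 6 replicate numbers on the deposited values, where 55.3% of all tested features were, and by rank, where 23.8% were. Both counts take in a pair with a WT zero, replicate 1 for AT1G79080 and replicate 4 for AT5G15280. After median centring replicate 3 of AT5G15280 went the other way, at -0.15 on the log2 scale. By rank AT1G31790 alone had no overlap between groups, as had 14.1% of tested features in this direction. AT1G31790 and AT1G79080 had no overlap between groups on the deposited values, as had 37.2% of tested features in this direction, and after quantile normalization, as had 16.3%. Since the genes were chosen by this contrast, nothing is read from these counts. Levels of different probes are not comparable, so the genes are not ranked by expression.

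**Figure D3:**
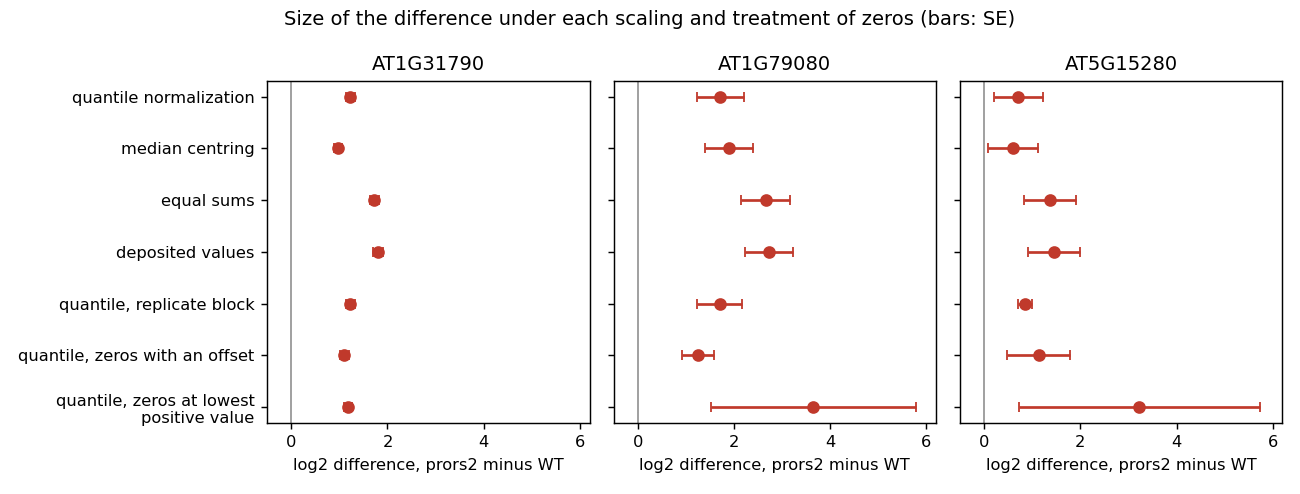
Log2 difference (prors2 minus WT) of the 3 genes under 4 scalings, with the replicate number as a block, and with zeros handled in other ways. Points are fitted differences and bars are their SE. The points lie above 0 under all 7 settings shown, AT1G31790 between 0.98 and 1.80, while AT1G79080 and AT5G15280 move to 3.65 and 3.23 with wide bars when zeros are set to the lowest positive value.

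The features most like each gene were sought among single-gene probes, by the root mean square difference of quantile-normalized log2 values after each gene's own mean was taken off. For AT1G31790, over 12 samples and 604 genes compared, they were AT2G35450, AT5G17630 and AT4G21770, at distances of 0.16, 0.19 and 0.19. For AT1G79080, among 592 genes, they were AT4G23110 at 0.54 over 10 samples, AT5G19900 at 0.61 over 11 and iqd32 (AT1G19870) at 0.64 over 10. For AT5G15280, also among 592, they were AT4G23110 at 0.61, AT1G69910 at 0.65 and AT5G01960 at 0.66, each over 11 samples. The distances were larger for AT1G79080 and AT5G15280 than for AT1G31790, and AT4G23110 was nearest to both of the genes that have a zero. AT4G23110 was itself at 0 in WT replicate 4. Its distance to AT1G79080 thus leaves out that sample, where AT1G79080 had its lowest value above 0.

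Other pentatricopeptide repeat genes were then looked at in the fit over all features. A fixed list of genes with a studied role gave 4 with a probe of their own: CRR21 and OTP85, both needed for editing of the plastid ndhD transcript, AT3G22690 (YS1), needed for editing of rpoB, and AT3G22150 (AEF1), needed for editing of atpF. None of the 4 passed (limma adjusted p below 0.05), and 0 had an unadjusted p below that level, where 24.8% of the 3024 tested features were called higher and 22.4% lower. Their median log2 difference was 0.38. Under the other scalings the count called higher was 4 on the deposited values, where 57.8% of all tested features were, 3 at equal sums, where 55% were, and 0 after median centring, where 19.8% were.

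CRR21 (AT5G55740) ran from 0.347 to 0.761 with a median of 0.594 in prors2, and from 0.230 to 0.448 with a median of 0.306 in WT. Its difference after quantile normalization was 0.19 (SE 0.24, limma adjusted p = 0.558). OTP85 (AT2G02980) ran from 0 to 0.237 with a median of 0.186 in prors2, and from 0.00518 to 0.0686 with a median of 0.0267 in WT. Like AT1G79080 it lay near the bottom of the scale in WT, but its single zero was in prors2. Its difference was 1.44 (SE 0.84, limma adjusted p = 0.189) in the fit that leaves its zero out. With the replicate block it was 0.98 and did not pass (limma adjusted p = 0.301). Nor did OTP85 pass once zeros were counted as the smallest reading above 0 (limma adjusted p = 0.533). When samples were left out singly, it passed only without prors2 replicate 2, at 2.16 (limma adjusted p = 0.0237). AT3G22690 differed by 0.57 (SE 0.36, limma adjusted p = 0.227) and AT3G22150 by -0.19 (SE 0.24, limma adjusted p = 0.541). The fit left out 1 zero of AT3G22690 in WT, where its median was 0.0519.

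A wider list of 18 other loci known as pentatricopeptide repeat genes, the 4 above among them, was written from the locus names on the array, and 17 of them were tested. Of these 6 rose in prors2, 0 fell and 11 did not pass, a share of 35.3% against the 24.8% of all tested features called higher. Their median log2 difference was 0.26, against 0.07 for all tested features. AT3G51320, the untested one, was at 0 in 2 prors2 and 4 WT samples.

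AT3G49740 was among the risers, with a median of 0.575 and a lowest value of 0.511 in prors2, and a median of 0.154 and a highest value of 0.258 in WT. On the deposited values the groups did not overlap, as in 37.2% of tested features in this direction. The difference after quantile normalization was 1.19 (SE 0.15, limma adjusted p = 5.01e-05). AT5G39980 ran from 1.12 to 1.87 in prors2 and from 0.411 to 0.659 in WT, a difference of 1.15 (SE 0.14, limma adjusted p = 4.38e-05). AT2G19280 ran from 1.09 to 1.73 in prors2 and from 0.334 to 0.693 in WT, a difference of 1.18 (SE 0.15, limma adjusted p = 6.04e-05). These differences were close in size to that of AT1G31790 after quantile normalization. Median centring put AT5G39980 at 0.67, AT2G19280 at 0.74 and AT3G49740 at 1.08, against 0.98 for AT1G31790. AT3G26630, with medians of 2.80 in prors2 and 1.65 in WT, rose by 0.75 (SE 0.12, limma adjusted p = 3.73e-04). That rise was not seen under median centring, which put it at -0.02.

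The other risers, AT2G46050 and AT2G17670, were outside the rule for named genes and are named to complete the count. AT2G46050 differed by 1.09 (SE 0.22, limma adjusted p = 0.00140). AT2G17670 differed by 1.74 (SE 0.37, limma adjusted p = 0.00551) over the 4 samples above 0 in each group, and did not pass when each zero was replaced by the lowest positive value (limma adjusted p = 0.860). Under all 4 scalings 5 of the 17 were called higher, the exception among the risers being AT3G26630. Median centring also called AT2G30100 and AT3G13150 lower, at -0.54 and -0.91, where 29.1% of all tested features were called lower. AT3G13150 was at 0 in 2 WT samples and in 0 prors2 samples, and the fit left those zeros out. With the zeros counted, its deposited mean was 1.38 in prors2 and 0.957 in WT. OTP70 (AT4G25270), a splicing factor for the plastid rpoC1 transcript, had a fitted difference within 0.01 of 0 (SE 0.15, limma adjusted p = 0.999). It was called higher on the deposited values, at 0.56 (limma adjusted p = 0.0125), and at equal sums, at 0.49 (limma adjusted p = 0.0177), and lay at -0.26 after median centring.

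**Figure D4:**
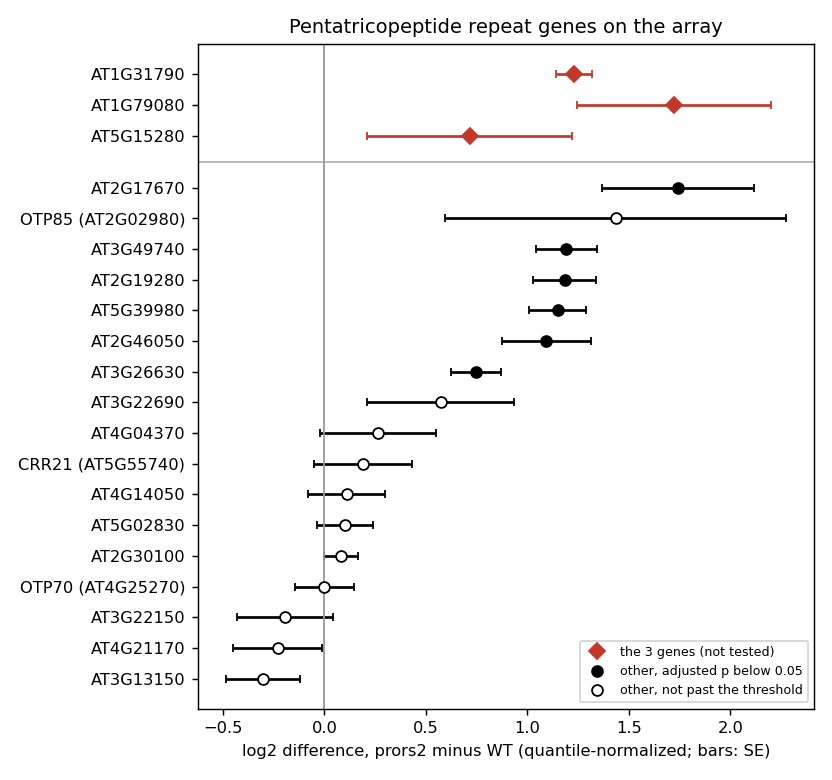
Log2 difference (prors2 minus WT, after quantile normalization) of the 3 genes (red diamonds, not tested because this contrast chose them) and of the 17 tested genes of the wider list (circles, filled where the limma adjusted p was below 0.05). Bars are SE. The 6 filled circles all lie above 0, and the open circles run from -0.30 to 1.44.

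Partners of these proteins were on a fixed list of 32 loci for organellar RNA editing, processing, decay and transcription, such as the MORF editing factors and the organellar RNA polymerases. None had a probe of its own, so they are not analysed here.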

How the data were processed

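One deposited table gave the intensity of 3439 features in 12 samples, as relative values made by the authors. The scale's base, the background correction, the kind of array and the tools used to make them are not stated in the labels. It held 0 columns of other samples and 0 identical columns. The platform's gene table, possibly old, gave 692 probes with 1 gene, 870 with several and 1877 features none, and 690 of the 692 matched the TAIR10.1 gene table. Coordinates are left out because the array's build is unknown.

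Log2 values, zeros missing, were quantile-normalized and fitted by group alone in limma 3.58.1 (lmFit, eBayes; R 4.3.3), two-sided, with Benjamini-Hochberg adjustment over 3024 features and a threshold of 0.05. The fit was tested on simulated data. The members and lists were chosen with earlier results of these data known. The wider list was written because the gene table holds no protein descriptions. Named genes are the 3 members, up to 4 called other pentatricopeptide repeat genes per direction, tested RNA partners, and the 3 features most like each member.

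Same-numbered prors2 and WT samples deviated together over 2654 complete features (correlations 0.212 to 0.399), and 6 of 6 samples of each group correlated best with their own number. By that check the numbers pair the samples, a pairing that comes from the data, since the labels name none. Unless another setting is named, the p-values come from the fit by group alone, which leaves this pairing out. With the replicate block 1605 of the 3024 features were called, against 1427 by group alone. The limma adjusted p with the block was 4.22e-04 for AT3G49740, 3.52e-04 for AT5G39980 and 2.99e-04 for AT2G46050. The number of arrays limits the precision. Alternatives were other scalings, zero treatments and filters, the replicate block, trend and robust fits, and leaving out each sample.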

Additional observations from a re-analysis of the deposited data

Results flagged for a closer look

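AT5G15280 in replicate 3 of prors2 (relative intensity 1.33) was set apart from the other 5 samples of its group by 0.83 of the group's range, above Dixon's critical value for 6 samples. AT5G15280 in replicate 3 of WT (0.880) was set apart in the same way, by 0.838 of the range. Of 6 groups examined, 3 genes in 2 genotypes, these were the only ones past that value. Chance passes it in about 1 group in 20 where values are independent and normally distributed. The 2 groups here share a gene and a replicate number and hold linear intensities, so nothing is read from their count against that rate.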

How the results depend on the processing

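The sign of the difference was positive for all 3 genes under each alternative that gave a value. AT1G31790 moved from 1.23 to 1.80 unscaled, 1.73 with equal sums, 0.98 after median centring and 1.11 with zeros kept with an offset. AT1G79080 moved from 1.72 to 2.72, 2.66 on the first 2 of these, and to 3.65 when zeros took the lowest positive value. It was among the dimmest 25% and has no value without them. AT5G15280 moved from 0.72 to 1.46 unscaled, 1.37 with equal sums, 1.13 with the offset and 3.23 when zeros took the lowest positive value. With the replicate block, where a replicate number with a zero adds nothing for that gene, the values were 1.23, 1.71 and 0.85. Leaving out each sample gave 1.19 to 1.29 for AT1G31790, 1.23 (without WT replicate 4) to 1.99 for AT1G79080 and 0.42 to 1.17 for AT5G15280. Leaving out both replicates 3 and both replicates 4, chosen after seeing the data, gave 0.98 for AT5G15280.

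Of the fixed list of 4 genes 0 passed, but 4 unscaled and 3 with equal sums, and from 0 to 1 when a sample was left out. Of the 17 tested genes of the wider list 6 passed, but 15 and 13 on those scalings, all of them higher. Of all tested features 24.8% were called higher, but 57.8% and 55% on those scalings. From 6 to 7 of the wider list passed when a sample was left out. The replicate block left both counts at 0 and 6. Calls over all features split into 751 higher and 676 lower, but 1747 and 269 unscaled, 1664 and 298 with equal sums and 600 and 881 after median centring. The cause was not tested. Signal near 0 limits AT1G79080, OTP85 and AT2G17670. Zeros in WT also limit AT5G15280, AT3G13150 and AT3G22690.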
